A study of Mus musculus with 4 samples.

Results

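The genes described here are 29 genes of cholesterol synthesis and its control, of 21887 protein-coding genes. They were taken from a list of symbols that covers the mevalonate and sterol enzymes, the regulators of the sterol response, the liver X receptors (LXR) with some of their targets, and an oxysterol-producing enzyme. Chromatin accessibility was profiled by DNase-seq, which sequences the ends of DNA cut by the nuclease DNase I, in lymphoid tissue inducer (LTi) cells sorted from Peyer's patches of C57BL/6 mice. The sort took live CD127+ CCR6+ cells that lacked lineage markers, KLRG1, NK1.1 and NKp46. The 2 control libraries came from Tcf7+/+ mice and the 2 Tcf7-KO libraries from Tcf7fl/fl mice with a Cre transgene that deletes Tcf7, which encodes the transcription factor TCF-1, in the cells that express the Cre. Each library started from 300 cells and a 5 minute digestion with 0.3 U of DNase I. The age of the mice, and whether the 2 libraries of a group came from different mice, are not stated in the labels.

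All values come from 1 table of accessible regions, called islands, each with a peak-side and a control-side read count. Since no label says which genotype, if any, either side stands for, no comparison of Tcf7-KO with control mice was made, and replicate values were not at hand. An island was given to the protein-coding gene whose end, of either kind, was nearest and within 50 kb, and to each of the genes where their ends were tied. It is called a gene-end island when that distance was at most 1 kb. By this rule 41 of the 16584 islands belonged to a member. Folds and FDR values are those of the authors: the fold divides the peak-side reads of an island by its control-side reads times 0.345. An island is called here when that FDR was under 0.05. The range after each fold is its 95% interval (Clopper-Pearson, exact), which allows for counting error alone and treats reads as independent molecules, which reads without molecular identifiers are not.

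Cells build cholesterol from acetyl-CoA through mevalonate, farnesyl diphosphate and squalene. When sterols run low, SCAP carries the SREBP transcription factors away from the INSIG proteins of the endoplasmic reticulum, and the released SREBP turns on the genes of the pathway by binding sterol regulatory elements in their promoters. When sterols are plentiful, oxysterols bind the LXR receptors, which turn on cholesterol export. In lymphoid tissue, oxysterols derived from the product of Ch25h are also ligands of Gpr183, a receptor that positions lymphoid cells.

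Promoter sequences are shown first in each role for the window inside the gene-end island with the most peak-side reads, among gene-end islands that hold a window of their own gene, for the member with a sterol regulatory element in its window, and, chosen after its values were seen, for Ch25h, which had no island. Each window runs from 250 bases before to 50 after a RefSeq start in build GRCm38.p6, the assembly that mm10 names, 5′ to 3′ on the gene's strand. Capitals mark the core of the sterol regulatory element (TCACNCCAC), the CCAAT box (CCAAT) and the E-box (CACGTG), searched on both strands, so that a CCAAT box on the opposite strand reads ATTGG. Srebf1 is shown with its 2 starts that lie in 1 island, which tied with the island of Srebf2 for peak-side reads.
Hmgcs1, chr13:119690101-119690400, plus strand: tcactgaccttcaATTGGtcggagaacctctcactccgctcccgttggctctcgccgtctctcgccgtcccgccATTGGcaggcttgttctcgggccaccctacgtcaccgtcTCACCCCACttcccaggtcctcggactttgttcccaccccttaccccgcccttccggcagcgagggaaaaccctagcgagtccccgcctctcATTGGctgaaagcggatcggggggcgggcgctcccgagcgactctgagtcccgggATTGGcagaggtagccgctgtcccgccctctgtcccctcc
Hsd17b7, chr1:169969156-169969455, minus strand: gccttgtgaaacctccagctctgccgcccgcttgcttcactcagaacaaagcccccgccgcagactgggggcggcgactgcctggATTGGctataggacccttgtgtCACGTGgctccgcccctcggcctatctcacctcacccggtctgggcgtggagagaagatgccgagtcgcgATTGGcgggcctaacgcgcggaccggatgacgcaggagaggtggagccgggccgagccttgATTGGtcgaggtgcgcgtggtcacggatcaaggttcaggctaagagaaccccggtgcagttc
Srebf1 upstream start, chr11:60222532-60222831, minus strand: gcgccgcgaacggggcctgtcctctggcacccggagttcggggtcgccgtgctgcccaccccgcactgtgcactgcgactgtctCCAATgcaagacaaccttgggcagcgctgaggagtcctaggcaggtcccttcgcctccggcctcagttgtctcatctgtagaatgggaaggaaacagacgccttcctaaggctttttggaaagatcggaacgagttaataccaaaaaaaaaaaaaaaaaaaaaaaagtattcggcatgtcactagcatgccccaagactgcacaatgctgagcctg
Srebf1 downstream start, chr11:60220578-60220877, minus strand: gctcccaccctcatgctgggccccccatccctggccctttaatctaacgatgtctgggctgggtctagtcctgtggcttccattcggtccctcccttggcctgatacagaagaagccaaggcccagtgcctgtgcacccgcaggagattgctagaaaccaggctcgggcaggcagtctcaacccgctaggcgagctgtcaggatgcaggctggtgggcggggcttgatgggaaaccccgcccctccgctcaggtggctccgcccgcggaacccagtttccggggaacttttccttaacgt
Srebf2, chr15:82147019-82147318, plus strand: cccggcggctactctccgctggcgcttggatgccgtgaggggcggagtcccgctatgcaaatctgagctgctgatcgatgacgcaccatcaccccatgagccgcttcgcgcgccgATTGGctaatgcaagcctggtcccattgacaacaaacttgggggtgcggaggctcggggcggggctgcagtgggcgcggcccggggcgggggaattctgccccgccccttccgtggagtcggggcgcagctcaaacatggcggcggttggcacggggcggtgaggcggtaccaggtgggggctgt
Abca1, chr4:53159846-53160145, minus strand: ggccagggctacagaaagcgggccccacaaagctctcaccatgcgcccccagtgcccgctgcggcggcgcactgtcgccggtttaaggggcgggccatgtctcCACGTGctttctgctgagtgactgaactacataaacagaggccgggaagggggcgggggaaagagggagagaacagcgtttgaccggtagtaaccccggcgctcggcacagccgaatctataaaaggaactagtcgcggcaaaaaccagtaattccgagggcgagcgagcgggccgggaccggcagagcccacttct
Ch25h, chr19:34475099-34475398, minus strand: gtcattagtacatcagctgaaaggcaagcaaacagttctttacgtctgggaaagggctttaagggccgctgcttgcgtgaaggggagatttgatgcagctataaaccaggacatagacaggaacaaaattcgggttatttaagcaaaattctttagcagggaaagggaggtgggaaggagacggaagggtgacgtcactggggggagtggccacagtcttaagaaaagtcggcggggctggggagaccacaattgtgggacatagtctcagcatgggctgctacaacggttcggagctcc

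Islands were present at most of these genes. Of the 29 members, 26 (89.7%) had an island, where 53.9% of all 21887 protein-coding genes did. A gene-end island was present at 23 (79.3%), against 46.1% of all genes, and 12 had 2 or more islands, against 15.2% of all genes. Only Ebp, Nr1h3 and Ch25h had none, and Pmvk, Fdft1 and Insig2 had an island but none at a gene end. At least 1 called island was found at 25 members, against 46.3% of all genes. No test of these counts was made. The enzymes had islands at 17 of 18 genes (7 of 7 in the mevalonate part, 10 of 11 from squalene on), the SREBP control genes at 5 of 5, and the LXR and oxysterol genes at 4 of 6.

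The whole table sets the scale for these values. Its islands had a median of 18 peak-side and 27 control-side reads, and none had fewer than 8 peak-side reads. Regions with fewer reads do not appear in it, so accessible genes can be missed. Control-side counts went lower, to 6 in an island of Mylip. Islands thus enter through the side that the fold divides, which can raise folds, most where reads are few. The counting intervals do not allow for this, and its size was not tested. Of the LTi and group 3 innate lymphoid cell markers, 12 of 13 had an island. Ccr6, although it was used in the sort, had none. Islands were found at 1 of 6 T cell, 2 of 6 B cell, 2 of 6 myeloid and 4 of 6 epithelial and stromal marker genes. The share over all genes was 53.9%. A gene-end island was present at 10 of the 13 LTi and group 3 markers and at 1 gene of each other marker list, against 46.1% of all genes. The part of T, B, myeloid, epithelial or stromal cells in the members' islands was not tested. The floxed gene itself, Tcf7, had 19 and 38 reads over its gene end (fold 1.45, 0.790 to 2.58), in an island that was not called. Its other islands lay more than 1 kb from its ends and were all called. The one with the most peak-side reads had 29 and 18 (fold 4.67, 2.51 to 8.94). None of these values checks a genotype here.

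The members' islands held 1071 peak-side and 1677 control-side reads, and their pooled fold was 1.85 (1.71 to 2.00). The median fold was 1.88, against 2.01 for all islands. By the authors' FDR 34 of the 41 (82.9%) were called, against 82.3% of all islands, so the share of called islands did not set the members apart. These calls rest on the authors' factor: with the total reads in islands as the scale instead, 4 of the 41 were called, where 9.19% of all islands were, and the median fold was 0.984, beside 1.05 over the whole table. Of the 34, 9 had a counting interval that reached 1 or below. The interval is two-sided and allows for counting error on both sides, whereas the authors' p-value is an upper tail with the control side taken as fixed. Gene-end islands (26) had a median fold of 1.75, with 30 peak-side and 49 control-side reads in the median island, against 1.86, 23 and 37 for all 9233 gene-end islands. Among them 21 were called, against 80.8% of all gene-end islands. The 15 islands elsewhere had a median fold of 2.40 and a median of 15 peak-side reads, against 2.32 and 13 over all 7351 such islands, and 13 were called, against 84.3%. The higher folds away from gene ends thus stood on fewer reads.

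**Figure D1:**
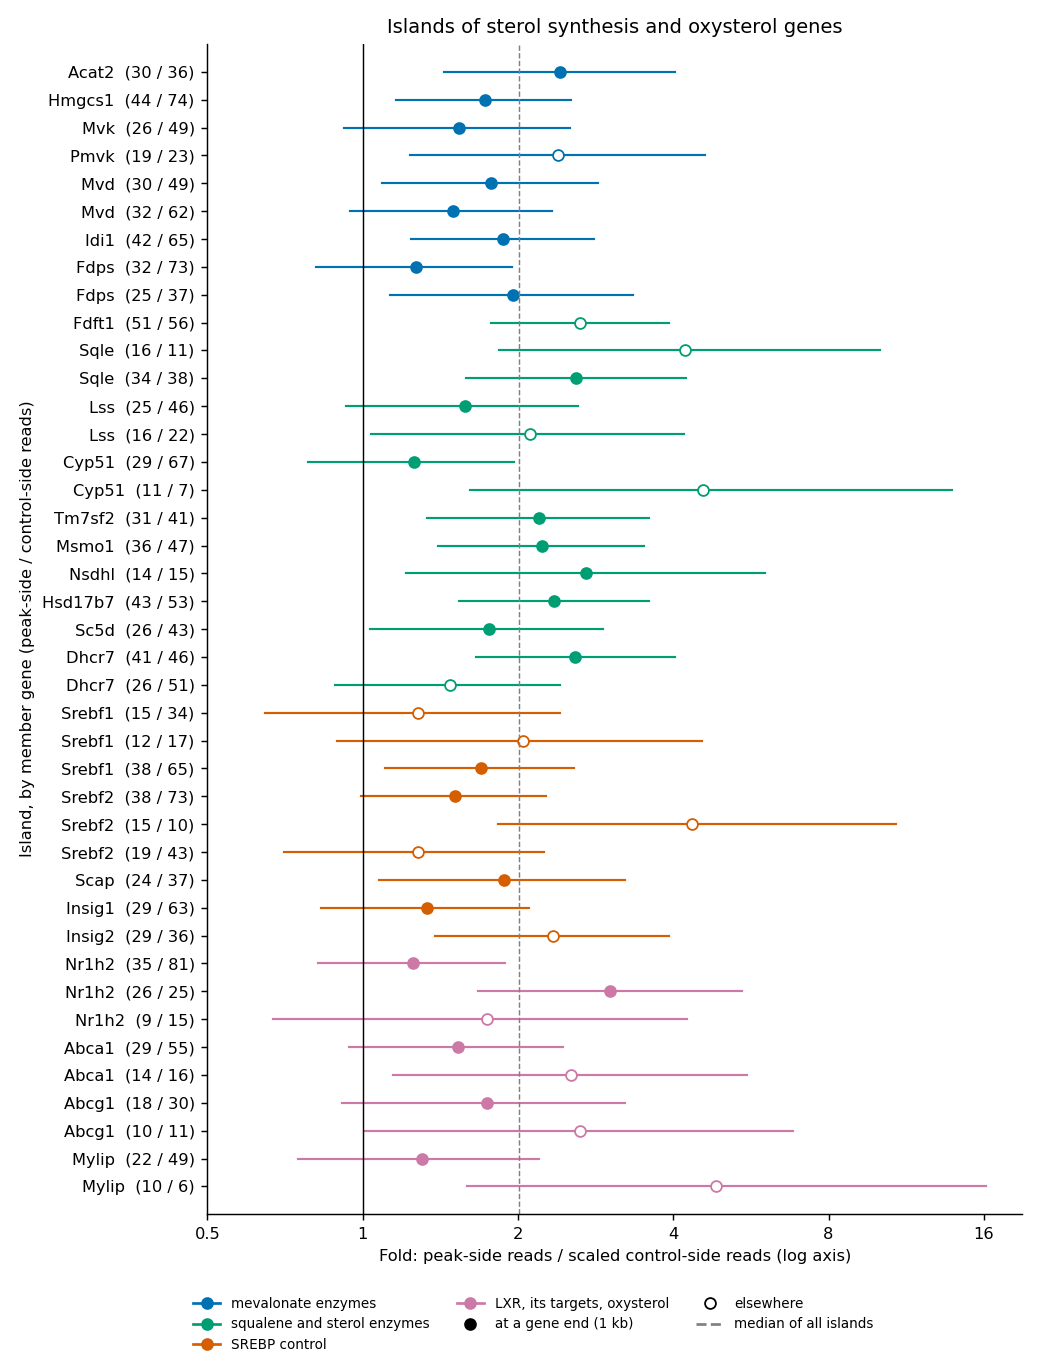
Fold of each of the 41 islands (peak-side over scaled control-side reads, log axis), with its 95% counting interval as a line; colours give the role, filled points are gene-end islands and open points lie elsewhere, and the reads of both sides stand beside each gene. With the authors' factor every fold lies above the solid line at 1, between 1.25 and 4.83, although with total reads as the scale the median falls to 0.984. Regions with few peak-side reads are not in the data, which can raise these folds. The 4 largest, at Mylip, Cyp51, Srebf2 and Sqle, are open points on 10 to 16 peak-side reads with wide intervals.

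The enzymes of the mevalonate part, which lead from acetyl-CoA to farnesyl diphosphate, had 9 islands, 8 of them called, with a pooled fold of 1.74 (1.49 to 2.02). Hmgcs1, the synthase that makes HMG-CoA, had the most peak-side reads of all gene-end islands of members, 44, beside 74 control-side reads. Its island (chr13:119690001-119691600) had a fold of 1.72 (1.16 to 2.54) and holds the window printed above. Idi1, which isomerizes isopentenyl diphosphate, had 42 and 65 reads over its start (chr13:8884401-8886600) and a fold of 1.87 (1.24 to 2.81). Both lay within the range of the other genes of this part, whose intervals all overlap.

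Acat2, the cytosolic thiolase at the entry of the pathway, had 30 and 36 reads over its start (chr17:12960401-12961600) and a fold of 2.42 (1.44 to 4.04), the highest of the mevalonate part. Mvk, mevalonate kinase, had 26 and 49 reads (fold 1.54, 0.918 to 2.53) in an island (chr5:114442601-114445200) that also covers the start of its neighbour Mmab, a gene of cobalamin metabolism. Mvd, the decarboxylase, had an island at each end. The one over its start (chr8:122443201-122444000) had 32 and 62 reads (fold 1.50, 0.945 to 2.33), and with 40.0 peak-side reads per kb it was the densest of all member islands. That at its far end (chr8:122429001-122433600) had 30 and 49 reads, a fold of 1.78 (1.09 to 2.85), and covers the start of Cyba, a subunit of the phagocyte oxidase.

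Fdps, farnesyl diphosphate synthase, likewise had an island at each end. The one at chr3:89099801-89102400 had 25 and 37 reads (fold 1.96, 1.13 to 3.34). The other (chr3:89089601-89093600), which covers the start of Rusc1, had 32 and 73 reads and was not called (fold 1.27, 0.812 to 1.95). Pmvk, phosphomevalonate kinase, had no island over its first start, and its single island (chr3:89458601-89459600), with 19 and 23 reads (fold 2.40, 1.23 to 4.60), lay 4060 bp inside the gene over a second RefSeq start.

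The enzymes from squalene to cholesterol had 14 islands, 13 of them called, with a pooled fold of 2.13 (1.87 to 2.43), the highest of the 4 roles. The intervals of the other 3 roles reach up to 2.02, 1.99 and 2.11, so they overlap with this one, and the difference between roles was not tested. Fdft1, squalene synthase, had the most peak-side reads of any member island, 51 beside 56 on the control side, at chr14:63177601-63179200. Its fold was 2.64 (1.77 to 3.93), and it lay 2487 bp inside the gene's annotated end, so it does not count as a gene-end island. Sqle, squalene epoxidase, had 34 and 38 reads over a gene end (chr15:59314601-59316400) with a fold of 2.60 (1.58 to 4.23). A second island (chr15:59280001-59280600), between genes 34492 bp away, had 16 and 11 reads (fold 4.22, 1.84 to 10.1). At Sqle both sides thus counted nearly the same reads, 50 and 49 in all, for a pooled fold of 2.96 (1.96 to 4.48), the highest of the 26 genes. With gene-end islands alone Sqle stood at 2.60, under Nsdhl at 2.71.

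Lss, lanosterol synthase, had 25 and 46 reads over its start (chr10:76530401-76534200; fold 1.58, 0.928 to 2.62) and 16 and 22 reads in an intragenic island 9436 bp from the gene end (fold 2.11, 1.04 to 4.20). Cyp51, the lanosterol demethylase, showed the widest gap between its islands among the enzymes. Over its start (chr5:4103001-4106600) it had 29 and 67 reads (fold 1.26, 0.783 to 1.97), and the island was not called. Between genes 7504 bp away (chr5:4112201-4113200) it had 11 and 7 reads (fold 4.56, 1.61 to 13.9). The 2 intervals still overlap.

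The sterol-modifying enzymes downstream had gene-end islands with folds from 1.75 to 2.71. Msmo1, the methylsterol oxidase, had 36 and 47 reads (chr8:64732001-64734000; fold 2.22, 1.40 to 3.50). Hsd17b7, a sterol keto-reductase, had 43 and 53 reads (chr1:169968601-169969800; fold 2.35, 1.54 to 3.59) in an island that also covers a RefSeq start of 3110045C21Rik. Dhcr7, a reductase of the last steps, had 41 and 46 reads (chr7:143822601-143823800; fold 2.59, 1.65 to 4.03) in an island that also covers the start of Nadsyn1, an NAD synthesis gene. These 3 gene-end islands and that of Sqle had lower bounds between 1.40 and 1.65 and stood above the median fold of gene-end islands.

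A further island of Dhcr7, 6434 bp inside the gene over the last of its RefSeq starts, had 26 and 51 reads (fold 1.48, 0.885 to 2.42). Tm7sf2, a sterol reductase, had 31 and 41 reads (chr19:6066001-6069600; fold 2.19, 1.33 to 3.58) in an island that reaches the end of Vps51. Sc5d, a sterol desaturase, had 26 and 43 reads (chr9:42263801-42264600; fold 1.75, 1.03 to 2.92). Nsdhl, a sterol dehydrogenase on the X chromosome, had the fewest reads of the gene-end islands, 14 and 15 (chrX:72917801-72918800), with a fold of 2.71 (1.21 to 6.02), and shares that island with the start of the centrin gene Cetn2. Ebp, the sterol isomerase, also on the X chromosome, had no island, and the nearest one lay 7329 bp from the gene at Tbc1d25, with 10 and 26 reads.

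The SREBP control genes had 9 islands, 6 of them called, with a pooled fold of 1.68 (1.42 to 1.99), the lowest of the 4 roles. Srebf2, which encodes the SREBP most tied to cholesterol synthesis, had 3 islands. The one over its start (chr15:82146801-82149600) had 38 and 73 reads (fold 1.51, 0.992 to 2.26). Inside the gene, an island at chr15:82155801-82158200 had 15 and 10 reads (fold 4.35, 1.83 to 10.8), and one at chr15:82164001-82166600 had 19 and 43 reads (fold 1.28, 0.705 to 2.25), not called. In unscaled reads the control side thus outnumbered the peak side in 2 of the 3 islands, and the peak side the control side in the one at 8532 bp from the gene end.

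Srebf1, whose products act more on fatty acid genes, had the widest island of all members, 5200 bp (chr11:60218001-60223200), over 2 of its RefSeq starts. It had 38 and 65 reads (fold 1.70, 1.11 to 2.57), and lay 986 bp from the annotated gene end, just inside the 1 kb limit. The remaining RefSeq start of Srebf1 lies in an island (chr11:60210201-60210800) with 21 and 28 reads (fold 2.18, 1.17 to 3.97), which the rule gives to the neighbour Rai1. The 2 other islands assigned to Srebf1 lie within Rai1, 21284 and 12284 bp away, with 15 and 34 reads (fold 1.28, 0.648 to 2.41) and 12 and 17 reads (fold 2.05, 0.892 to 4.55).

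Scap, the escort of the SREBPs, had 24 and 37 reads over its starts (chr9:110333201-110335000; fold 1.88, 1.08 to 3.23). Insig1 and Insig2 encode the proteins that hold SCAP back. Insig1 had 29 and 63 reads over its start (chr5:28070801-28072400) with a fold of 1.34 (0.829 to 2.10), and was the only member with an island but no called one. Insig2 had 29 and 36 reads (chr1:121327201-121329000; fold 2.34, 1.38 to 3.92) in an island 3662 bp inside the gene that covers 2 RefSeq starts, while its first start lay in no island. The 2 genes had equal peak-side reads and differed on the control side, with overlapping intervals.

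**Figure D2:**
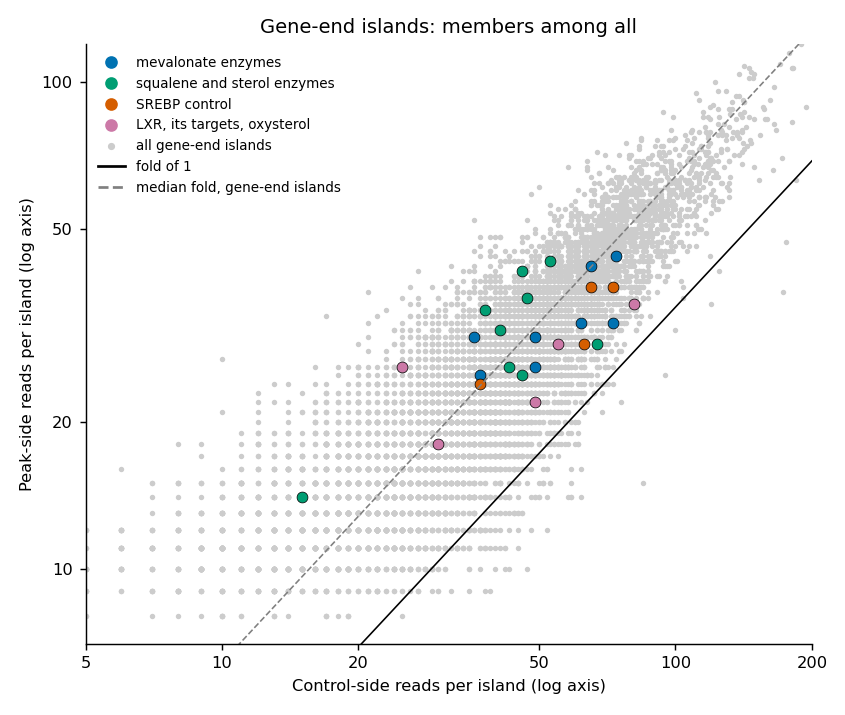
Peak-side against control-side reads of gene-end islands (both axes log), with the members' 26 islands coloured by role on all gene-end islands in grey; grey points beyond the axes are not drawn. The solid line marks a fold of 1 and the dashed line the median fold of gene-end islands, 1.86; members lie between 14 and 44 peak-side reads, and 15 of the 26 lie below the dashed line.

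The LXR and oxysterol genes had 9 islands at 4 of 6 genes, 7 of them called, with a pooled fold of 1.74 (1.43 to 2.11). Nr1h2, the broadly expressed LXR gene, had an island at each end and another beyond them. Over its start (chr7:44553201-44554800) it had 26 and 25 reads (fold 3.02, 1.67 to 5.45), the highest fold of the members' gene-end islands. The island at its far end (chr7:44548601-44549800), which covers the start of the DNA polymerase gene Pold1, had 35 and 81 reads (fold 1.25, 0.818 to 1.88), the lowest fold of all members, and was not called. So the 2 ends of 1 gene 4353 bp long held the extremes of the gene-end folds, and their intervals overlap only between 1.67 and 1.88. The island beyond them (chr7:44561001-44561400) had 9 and 15 reads, a fold of 1.74 (0.672 to 4.24), and the fewest peak-side reads of the members' islands.

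Nr1h3, the other LXR gene, had no island of its own, and neither of its 2 RefSeq starts lay in one. An island 461 bp outside the gene's far end had 29 and 40 reads and was nearest an end of Madd. Ch25h, the hydroxylase that makes an oxysterol from cholesterol, also had none, and the nearest island lay 25653 bp away at Lipa, with 11 and 12 reads. No island had fewer than 8 peak-side reads, and reads outside islands were not at hand. The lack of an island at Ch25h and Nr1h3 therefore does not show that accessibility was absent.

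Abca1 and Abcg1, the LXR-driven exporters of cholesterol, had 2 islands each. Abca1 had 29 and 55 reads over its start (chr4:53158801-53161200; fold 1.53, 0.940 to 2.44) and 14 and 16 reads between genes 34413 bp away (chr4:53194401-53197800; fold 2.54, 1.15 to 5.55). Abcg1 had 18 and 30 reads over a gene end (chr17:31057401-31059400; fold 1.74, 0.914 to 3.23) and 10 and 11 reads 17307 bp inside the gene (chr17:31075001-31076200; fold 2.64, 1.00 to 6.84). Mylip, an LXR target that marks lipoprotein receptors for degradation, had 22 and 49 reads over its start (chr13:45389201-45390800; fold 1.30, 0.750 to 2.19), not called. An island 1659 bp into the gene (chr13:45391401-45392800) had 10 and 6 reads (fold 4.83, 1.59 to 16.2), the highest fold of the 41. In each of these 3 LXR targets the fold was higher in the island away from the gene end, on 10 to 14 peak-side reads, and the intervals of each pair overlap.

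Most of the gene-end islands lay over transcription starts. RefSeq promoter windows were found for 25 members, with 34 windows, and Fdps, Fdft1, Sqle and Abcg1 had no entry. A RefSeq start of the gene itself lay in 20 of the 26 gene-end islands. Of the others, those of Mvd and Nr1h2 stood at the far end of the gene over a neighbour's start, and 4 belonged to genes with no entry. Away from gene ends, 3 of 15 islands covered a start of their gene, those of Pmvk, Dhcr7 and Insig2. In all, 22 of the 25 members with an entry had a start in an island, the exceptions being Ebp, Nr1h3 and Ch25h. The islands over starts reached a median of 616 bp before the start and 959.5 bp after it, against 801 and 971 bp over all 8258 such pairs of island and gene.

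**Figure D3:**
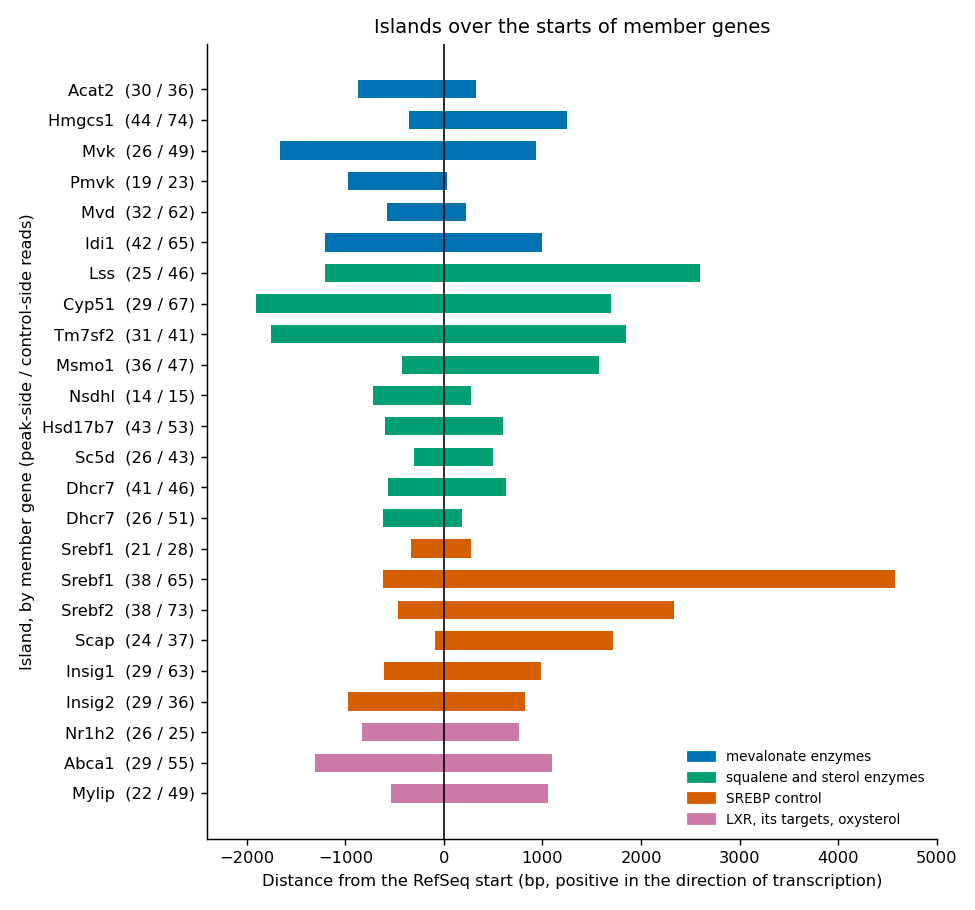
Extent of the 24 islands that cover a RefSeq start of a member, as distance from that start in bp, positive in the direction of transcription; colours give the role, and peak-side and control-side reads stand beside each gene. Where an island covers several starts the one transcribed first is at 0. The bars run from 1903 bp before the start (Cyp51) to 4580 bp after it (Srebf1), and 12 of the 24 reach farther after the start than before it.

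The promoter windows with an island were rich in CpG. The whole 300-base window lay inside an island in 25 of the 34 member windows (73.5%), against 40.4% of 21263 windows of protein-coding genes. Those 25 held a median of 23 CpG, as did the windows of all genes inside an island, and the 6 member windows that touched no island held a median of 9, against 4 for all genes. With 20 or more CpG, 16 of 17 member windows (94.1%) lay inside an island, against 73.3% of all such windows. With 10 to 19 CpG the shares were 58.3% (7 of 12) and 52.6%, and with 0 to 9 CpG they were 40.0% (2 of 5) and 7.16%. CpG count therefore moved with the presence of an island among members as among all genes, and its part in the members' counts was not tested further. The 2 windows with under 10 CpG inside an island belonged to Idi1 and to the second start of Dhcr7. Windows of 1 gene can overlap and are not independent.

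**Figure D4:**
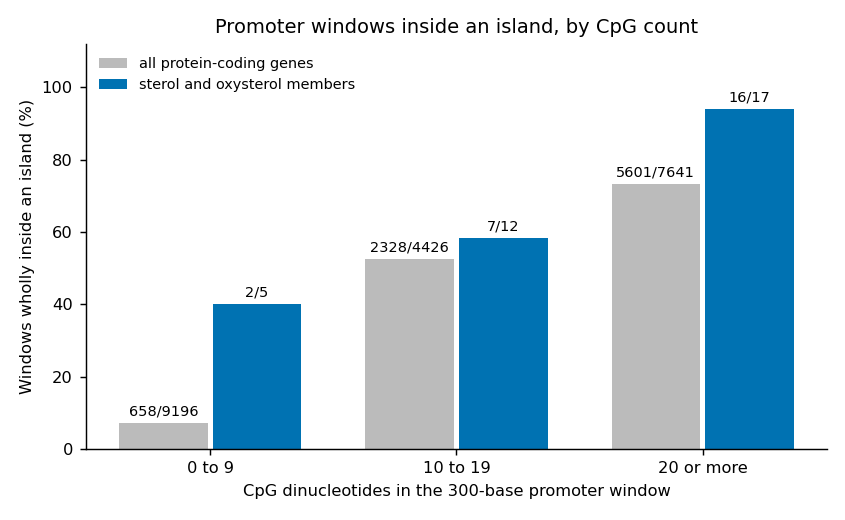
Share of 300-base promoter windows that lie wholly inside an island (%), by the number of CpG dinucleotides in the window, for all protein-coding genes (grey) and members (blue); the counts above the bars are windows inside an island over windows in the class. The share rises with CpG count in both, from 7.16% to 73.3% over all genes and from 40.0% to 94.1% among members, which number 5, 12 and 17 windows.

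Motifs in the windows are given as a description of their letters. The core of the sterol regulatory element, TCACNCCAC, was found in 1 member window (2.94%), that of Hmgcs1, as TCACCCCAC from 137 bases before the start, and in 1.19% of all windows. Only exact matches were counted, so elements with other letters or outside the windows are missed. Fdps, Fdft1, Sqle and Abcg1 had no window to search. The CCAAT box, the site of NF-Y, a common partner of SREBP, was found in 20 of 34 member windows (58.8%), against 38.2% of all windows. Among windows inside an island it was in 17 of 25 (68.0%), against 39.5% of all. Hmgcs1 has 4 such boxes in the window printed above, Hsd17b7 has 3, and Mvk has 5. The GC box (GGGCGG) was in 22 of the 25 member windows inside an island (88.0%), against 71.6% of all. The E-box (CACGTG), which SREBP1 can also bind, was in 7 member windows (20.6%), against 7.84% of all, and they belonged to Hsd17b7, Sc5d, Dhcr7, Scap (2 windows that overlap), Insig1 and Abca1. For windows inside an island the E-box shares were 20.0% (5 of 25) among members and 10.9% among all genes. The TCF motif (CTTTGAT) was in none of the 34 and in 3.22% of all windows, which says only that these letters are not in these windows. The Ch25h window holds none of the 5 motifs.

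Other genes of sterol and lipid metabolism were described from 4 lists. Of their 43 genes, 40 had an island and 35 a gene-end island, against 53.9% and 46.1% of all genes. Of their 71 islands, 65 were called, against 82.3% of all islands, and no test of these counts was made. In oxysterol metabolism and sensing 8 of 9 genes had an island and all 14 islands were called, with a median fold of 2.26. Osbp, an oxysterol-binding lipid transfer protein, had the most reads of that list, 131 and 202 over 3 islands (pooled fold 1.88, 1.50 to 2.36), and Cyp7b1, which acts on the product of Ch25h, had no island. In sterol transport, storage and SREBP processing 17 of 17 genes had an island and 25 of 26 islands were called, with a median fold of 2.25. Gramd1a had the most reads of that list, 94 and 131 over 5 islands (pooled fold 2.08, 1.58 to 2.73). Npc2, a lysosomal cholesterol carrier, came next in peak-side reads, with 74 and 90 reads (pooled fold 2.38, 1.73 to 3.28). The uncalled island was that of Mbtps1, the protease that first cuts SREBP, with 28 and 63 reads. In fatty acid synthesis 9 of 11 genes had an island and 15 of 16 islands were called, with a median fold of 2.59, led in reads by Elovl5, a fatty acid elongase, with 97 and 108. The RXR partners of LXR and their corepressors had islands at 6 of 6 genes, 11 of 15 called, with a median fold of 1.82.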

How the data were processed

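Bowtie2 2.4.2, SICER 2.0 and build mm10 are named, without roles, in the submitters' processing notes. Per the file headers, the authors deposited for each island a peak-side and a control-side read count, without normalization, a p-value with its FDR, and a fold (ratio). All 16584 folds and p-values could be recomputed from the read counts with 1 factor, 0.345, and 0.25 reads in place of 0 (tolerance 1e-05 relative and 1e-06). The table was not filtered on FDR here. The columns name no library, so the planned edgeR comparison of genotypes was not run. The 2 sides cannot be told apart as genotypes or as signal and background.

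Genes, without strand, and promoter windows came from RefSeq tables of GRCm38.p6, in which all 29 members matched. Islands nearest to the ends of several genes at once (1413 islands) were given to each of them, a choice made after the table was seen. Coordinates are 1-based mm10 positions. Counts, counting intervals and motifs were computed in Python 3.11.15 with scipy 1.17.1, tested on simulated data. All members are named; of other lists, at most the 3 genes with the most peak-side reads, genes that share a member's island, and genes without one. Mbtps1, the uncalled island of its list, Cyp7b1, Ccr6, Rai1, Madd, Tbc1d25 and Lipa were named after their values were seen. The members and lists were chosen with earlier results of these data known. Alternatives covered windows, thresholds, scaling and ties.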

Additional observations from a re-analysis of the deposited data

How the results depend on the processing

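The counts of members held within 1.5 times under every window, threshold and tie rule tried: 23 to 27 members had an island and 19 to 23 a gene-end island. Across the same settings 33.7% to 54.7% of all genes had an island, and 30.1% to 47.5% a gene-end island. Nr1h3 gained an island when those in the gene body and 1 kb around it were counted. With the tie given to the end nearest the island's middle, a choice added after the table was seen, as was leaving out islands at the ends of 2 genes, Mvk, Tm7sf2 and Nsdhl lost theirs and 23 members had one, against 49.2% of all genes. The scaling of the control side set the level of every fold. When total reads in islands set the scale, 4 of the members' islands were called rather than 34 (9.19% of all islands) and their median fold was 0.984 rather than 1.88, beside 1.05 over the whole table. When the median ratio set it, 2 were called (6.61% of all islands) and the members' median was 0.937, beside 1 by construction. The 4 were the islands away from gene ends at Cyp51, Mylip, Sqle and Srebf2. Requiring a fold over 2 as well left 19 called, and 50.4% of all islands. With total reads in islands as the scale, pooled folds whose interval had lain above 1 fell under 1 at 13 members: Hmgcs1 0.902, Mvd 0.848, Idi1 0.980, Fdps 0.786, Lss 0.915, Cyp51 0.820, Sc5d 0.917, Srebf1 0.850, Srebf2 0.867, Scap 0.984, Nr1h2 0.878, Abca1 0.919 and Mylip 0.883. These shifts are built into the scaling. With gene-end islands alone all 23 pooled folds stayed within their intervals. Members with no other island could not change in this setting. In the rest the same gene-end reads entered both folds, so this result does not test their stability. No paired analysis was possible because neither read column is tied to a library or replicate, and for the same reason fits per library, leave-one-out fits included, were not run. The median member island's interval spans a 2.82-fold range, which limits any ranking of members.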
